A study of Homo sapiens with 6 samples.

Results

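The genes described here make, store and take back catecholamines, and they were chosen by name with earlier results of these data known. They are DDC, GCH1, SLC18A2, SLC6A2 and CHGB, 5 of the 4101 genes of the deposited table, and each was found in it. Expression was measured by RNA sequencing in SH-SY5Y, a human neuroblastoma cell line of wild-type genotype that is used as a model of catecholamine cells. The METH group (n = 3) was exposed to 2 mM methamphetamine (METH), a psychostimulant, for 24 h, and the PBS group (n = 3) received phosphate-buffered saline. The labels also give the time of each sample as day 0, and they do not say whether the libraries of a group came from separate cultures, so the p-values measure the spread between these libraries, which may be technical. All libraries are of 1 line, which divides as a tumour line does and stands in for neurons only in part.

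Dopamine and noradrenaline are made from tyrosine. Tyrosine hydroxylase, which needs the cofactor tetrahydrobiopterin, forms L-DOPA, and DDC (aromatic L-amino acid decarboxylase) turns L-DOPA into dopamine. GCH1 (GTP cyclohydrolase 1) catalyses the first and rate-limiting step in the synthesis of tetrahydrobiopterin. SLC18A2 encodes VMAT2, the vesicular monoamine transporter that loads amines from the cytosol into vesicles, and CHGB encodes chromogranin B, an acidic protein of the dense-core granules in which neuroendocrine cells keep amines and peptides. SLC6A2 encodes NET, the noradrenaline transporter of the plasma membrane, which carries noradrenaline and dopamine back into the cell. METH is known as a substrate of the uptake transporters and as an agent that releases amines from VMAT2-bearing vesicles.

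GCH1, SLC18A2 and CHGB were up-regulated in the METH group, and DDC and SLC6A2 were down-regulated. The rise was 2.11-fold for GCH1, 2.91-fold for SLC18A2 and 1.89-fold for CHGB, while DDC fell to 0.692 and SLC6A2 to 0.687 of the level of the PBS group. Each of the 5 genes passed an adjusted p of 0.1, and for each of them all METH libraries lay on the same side of all PBS libraries. In the same fit 69.1% of the table's genes passed the threshold, 33.3% higher and 35.8% lower with METH, and the groups did not overlap in 64.0% of the genes. The count of 5 of 5 therefore has a high background, since the authors deposited only genes that they marked as changed between these same groups. When each p-value was adjusted as 1 of 20000 genes, 10.0% of the table passed, and so did GCH1 (adjusted p = 0.0439 by limma), SLC18A2 (0.0784) and CHGB (0.0998), but not SLC6A2 (0.230) or DDC (0.426).

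**Figure D1:**
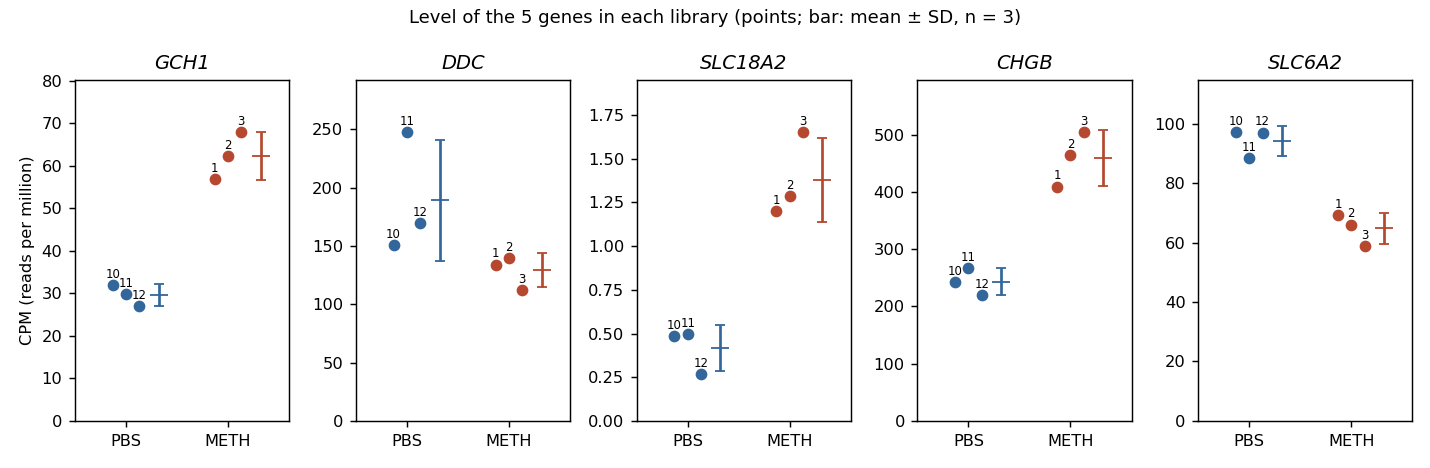
Level in CPM (linear axes that start at 0) of the 5 genes in each library, with 1 panel per gene, a numbered point per library and a bar for the mean ± SD (n = 3). GCH1, SLC18A2 and CHGB are higher in every METH library than in every PBS library, and DDC and SLC6A2 are lower.

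Values are given in CPM, the reads of a gene divided by the M reads of its library, and a fold change is that of log2(CPM + 0.1), with limma's Benjamini-Hochberg adjusted p over the 4101 genes. Library denominators recovered from the values lay between 85.7 and 110.8 M reads. The 2 libraries above 100 M reads, PBS 10 and METH 3, departed from their groups in the same way, with r = 0.57 between their deviations over 3625 genes. Those deviations fell with the GC content of the gene (r = -0.62 and -0.46 over 3618 genes). Deviations are from the mean of the library's own group, so on balance those of the other libraries must rise with it (r = 0.25 to 0.51). As each group holds 1 of the 2 libraries, all 5 members were also fitted with depth class as a term and in the 4 shallower libraries, both chosen after the data were seen, and 5 of 5 passed in each. Of the whole table, 90.9% passed with the depth term and 67.3% in the 4 libraries, so the count of members with the depth term lies near its background. With 3 libraries against 3, the exact permutation test (2-sided) cannot go below p = 0.1, which is the value for each of the 5 genes.

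On the side of synthesis, GCH1 and DDC moved in opposite directions. GCH1 (ENSG00000131979) lies on the minus strand of chromosome 14, at 54842008-54902852 of GRCh38 in the GENCODE 29 annotation, to which all positions of genes below refer. It measured 31.9, 29.7 and 27.0 CPM in PBS 10, 11 and 12 and 56.8, 62.2 and 68.0 CPM in METH 1, 2 and 3, so the lowest METH library lay well above the highest PBS library. The mean went from 29.6 ± 2.48 to 62.3 ± 5.59 CPM (SD, n = 3). The log2 fold change was 1.07 ± 0.187 (SE; 95% interval 0.65 to 1.50; adjusted p = 0.00899). Between 2513 and 7273 reads stood behind these values. GCH1 passed with each library left out in turn, with adjusted p between 0.0073 and 0.0456.

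DDC (ENSG00000132437; chromosome 7, 50458436-50565457, minus strand) measured 151, 248 and 170 CPM in PBS 10, 11 and 12 and 134, 140 and 112 CPM in the METH libraries. PBS 11 was the highest library, and the gap between the groups, from 151 down to 140 CPM, was small beside the spread of the PBS libraries. The mean went from 189 ± 51.5 to 129 ± 14.6 CPM (SD, n = 3), a log2 fold change of -0.53 ± 0.241 (SE; adjusted p = 0.0873). Its 95% interval, -1.08 to 0.01, reached 0, so among the 5 genes the decrease of DDC was the least certain. Without METH 1, METH 2 or METH 3 the adjusted p of DDC was 0.172, 0.170 or 0.192, and without PBS 12 it was 0.134. Without PBS 11 the log2 fold change was -0.32, with an adjusted p of 0.182.

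DDC shares 84100 bp of its span with FIGNL1, a gene of the AAA ATPase family on the same strand, and lies opposite DDC-AS1, which has no row in the table and was not analysed here. FIGNL1 went from 7.62 ± 2.34 to 2.46 ± 0.867 CPM (SD, n = 3), a log2 fold change of -1.62 (adjusted p = 0.0155). Whether the authors' counting used strand is not given in the sources used here. DDC had between 11485 and 21522 reads a library, and its CPM exceeded that of FIGNL1 in each library.

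The RefSeq table of promoters (GRCh38.p14) holds 2 windows for DDC and 1 for SLC18A2, and none for GCH1, SLC6A2 or CHGB. They are shown because a member that fell and a member that rose can be compared at their starts. Motifs were searched on both strands from 250 bases before to 50 bases after the start, and capitals mark a cAMP response element (TGACGTCA), its core (TGACG), an AP-1 site (TGANTCA), an NR4A monomer site (AAAGGTCA) or a TATA box (TATAAA). The element holds the core, so a match of the first is also a match of the second. A window that crosses the gene start of GENCODE 29 is printed to 12 bases inside the gene.
DDC upstream start, chr7:50565446-50565655, minus strand: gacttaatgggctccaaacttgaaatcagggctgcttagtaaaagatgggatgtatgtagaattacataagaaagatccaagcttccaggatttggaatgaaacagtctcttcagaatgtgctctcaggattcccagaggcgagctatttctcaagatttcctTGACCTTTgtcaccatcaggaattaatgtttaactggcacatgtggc
DDC inner start, chr7:50561072-50561321, minus strand: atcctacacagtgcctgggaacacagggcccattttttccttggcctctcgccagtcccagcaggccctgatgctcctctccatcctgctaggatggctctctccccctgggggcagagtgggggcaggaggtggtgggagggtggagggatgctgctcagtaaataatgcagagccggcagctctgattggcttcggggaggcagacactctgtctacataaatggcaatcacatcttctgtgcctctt
SLC18A2 start, chr10:117240864-117241084, plus strand: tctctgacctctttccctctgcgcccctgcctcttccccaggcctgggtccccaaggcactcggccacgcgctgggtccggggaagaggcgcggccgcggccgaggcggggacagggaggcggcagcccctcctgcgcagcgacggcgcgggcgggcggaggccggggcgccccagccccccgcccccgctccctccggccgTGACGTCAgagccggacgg

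The start of SLC18A2 carried the full cAMP response element, the site bound by the factor CREB, at position -48 from the RefSeq start. An EGR site (GCGGGGGCG) lay at -69 and 5 GC boxes (GGGCGG), 1 of which overlaps the EGR site, lay between -101 and 24. The upstream start of DDC carried 1 NR4A monomer site, on the opposite strand at -87, and 3 E-boxes (CANNTG). The inner start of DDC held none of the 8 motifs. Of 34796 promoters in the table, 1.84% held the full element, 24.5% its core, 1.21% the NR4A site, 5.07% the EGR site, 44.9% a GC box and 68.7% an E-box. The printed stretches also differed in composition, with 79.2% GC for SLC18A2 and 41.4% and 58.0% for the upstream and inner starts of DDC. These are matches of letters and not measured binding.

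Among the genes that serve storage, SLC18A2 had the lowest level of the 5 and, with the pseudocount of 0.1, the largest fold change. SLC18A2 (ENSG00000165646; chromosome 10, 117241073-117279430, plus strand) measured 0.487, 0.495 and 0.268 CPM in PBS 10, 11 and 12 and 1.20, 1.29 and 1.65 CPM in METH 1, 2 and 3. These values rest on 54, 43 and 25 reads in the PBS libraries and 103, 117 and 177 reads in the METH libraries. Counting error alone (exact Poisson 95% intervals) allows at most 0.667 CPM in any PBS library and at least 0.981 CPM in any METH library, so the groups also stayed apart within it. The mean went from 0.417 ± 0.129 to 1.38 ± 0.24 CPM (SD, n = 3), a log2 fold change of 1.54 ± 0.333 (SE; 95% interval 0.79 to 2.29; adjusted p = 0.0161).

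The fold of so low a gene depends on the pseudocount. The log2 fold change of SLC18A2 was 0.75 with 1 CPM added to each value, below GCH1 (1.05) and CHGB (0.91), and 1.74 with 0.01 CPM added, and the ratio of the mean CPM was 3.32. It passed with each library left out in turn (adjusted p 0.0153 to 0.055). At its 3′ end SLC18A2 shares 2157 bp with PDZD8 on the opposite strand, which has no row in the table and was not analysed here, and it also lies opposite the antisense genes AL731557.1 (851 bp shared) and AL391988.1 (1553 bp), likewise without a row. If counting ignored strand, reads of these genes cannot be told apart from those of SLC18A2.

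CHGB (ENSG00000089199; chromosome 20, 5911430-5925361, plus strand) was among the most abundant genes of the table, with a mean CPM at percentile 98.3. Its level was 242, 266 and 220 CPM in PBS 10, 11 and 12 and 409, 464 and 505 CPM in METH 1, 2 and 3, with a clear gap between the groups. The mean went from 243 ± 23.2 to 459 ± 48.1 CPM (SD, n = 3), a log2 fold change of 0.92 ± 0.216 (SE; 95% interval 0.43 to 1.40; adjusted p = 0.0205). At least 20494 reads lay behind each value, and no annotated gene overlapped it. CHGB passed with each library left out in turn, with adjusted p between 0.0174 and 0.0842.

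The uptake carrier SLC6A2 (ENSG00000103546; chromosome 16, 55655604-55706192, plus strand) measured 97.3, 88.3 and 97.0 CPM in PBS 10, 11 and 12 and 69.3, 66.0 and 59.0 CPM in METH 1, 2 and 3. All METH libraries lay below all PBS libraries, and the spread within each group was narrow. The mean went from 94.2 ± 5.12 to 64.8 ± 5.29 CPM (SD, n = 3), a log2 fold change of -0.54 ± 0.184 (SE; 95% interval -0.96 to -0.13; adjusted p = 0.0471). The log2 fold change was much like that of DDC, with a smaller error. With METH 1, METH 2 or METH 3 left out, the adjusted p of SLC6A2 was 0.112, 0.146 or 0.104, although the log2 fold change stayed between -0.59 and -0.48 in all 6 such fits. SLC6A2 shares 2074 bp with AC136621.1 on the same strand, which went from 8.17 ± 3.24 to 2.00 ± 1.99 CPM (SD, n = 3; log2 fold change -2.76, adjusted p = 0.0469). In bulk RNA, fewer cells that express a gene and less of its RNA per cell cannot be told apart, and this holds for each gene named here.

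To compare the genes with each other, CPM was divided by the exonic length in kb. In the PBS group DDC (60.4 ± 16.4 CPM per kb) and CHGB (53.6 ± 5.11) stood highest, and these neighbours overlapped, with DDC from 48.1 to 79.0. SLC6A2 (17.2), GCH1 (10.0) and SLC18A2 (0.101) followed, each without overlap with its neighbour. In the METH group the order was CHGB (101 CPM per kb), DDC (41.0), GCH1 (21.1), SLC6A2 (11.9) and SLC18A2 (0.333). GCH1 and SLC6A2 thus changed places, and CHGB no longer overlapped with DDC. The change of places rests on the annotated exonic lengths (2.951 kb for GCH1 and 5.463 kb for SLC6A2), which were not checked against the transcripts expressed here. In CPM, SLC6A2 (mean 64.8) and GCH1 (62.3) overlapped in the METH group.

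**Figure D2:**
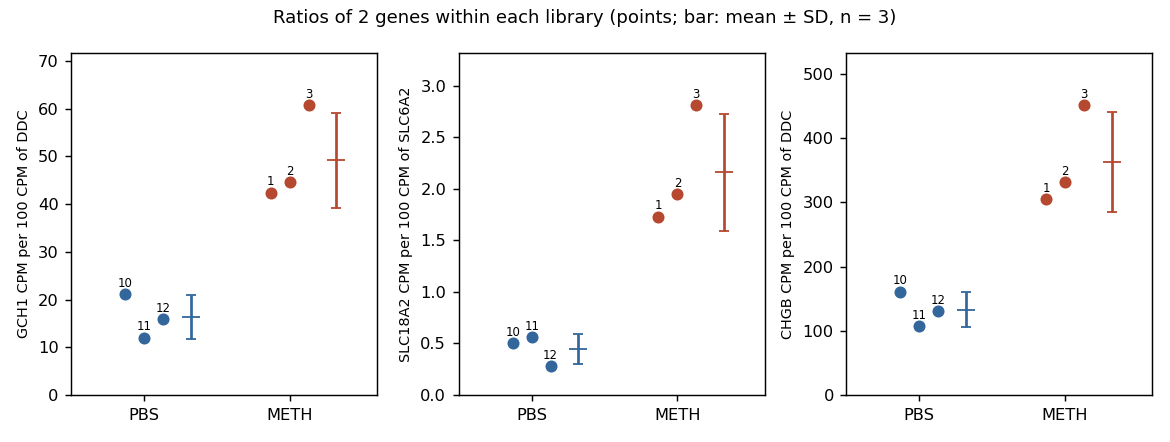
Ratios of 2 genes within each library, in CPM of the first per 100 CPM of the second (linear axes that start at 0), with a numbered point per library and a bar for the mean ± SD (n = 3). The METH libraries lie above the PBS libraries in all 3 ratios, and METH 3 is the highest in each.

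A ratio within a library does not depend on a factor that scales all its genes alike. Deviations that differ between genes, such as those with GC content, do not cancel in it. GC content was 43.2% for GCH1, 49.9% for DDC, 42.9% for SLC18A2, 53.9% for SLC6A2 and 52.3% for CHGB. The 3 ratios below were chosen after the values were seen and follow from the opposite directions of the genes. Per 100 reads of DDC there were 21.2, 12 and 15.9 reads of GCH1 in PBS 10, 11 and 12 and 42.4, 44.6 and 60.7 in METH 1, 2 and 3. The mean ratio was 16.4 ± 4.61 in the PBS group and 49.2 ± 10.0 in the METH group (SD, n = 3), 3.05 times higher as a ratio of geometric means, which the next folds also are. SLC18A2 per 100 reads of SLC6A2, a ratio of vesicular to plasma membrane transporter transcripts, went from 0.446 ± 0.15 to 2.16 ± 0.566, 4.97 times higher. CHGB per 100 reads of DDC went from 133 ± 26.8 to 363 ± 77.5, 2.73 times higher. METH 3 gave the highest value of all 3 ratios, and it was 1 of the 2 libraries above 100 M reads. PBS 10, the other such library, was the highest PBS library for GCH1 and CHGB per DDC, but not for SLC18A2 per SLC6A2. The part of depth in the ratios was not tested.

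**Figure D3:**
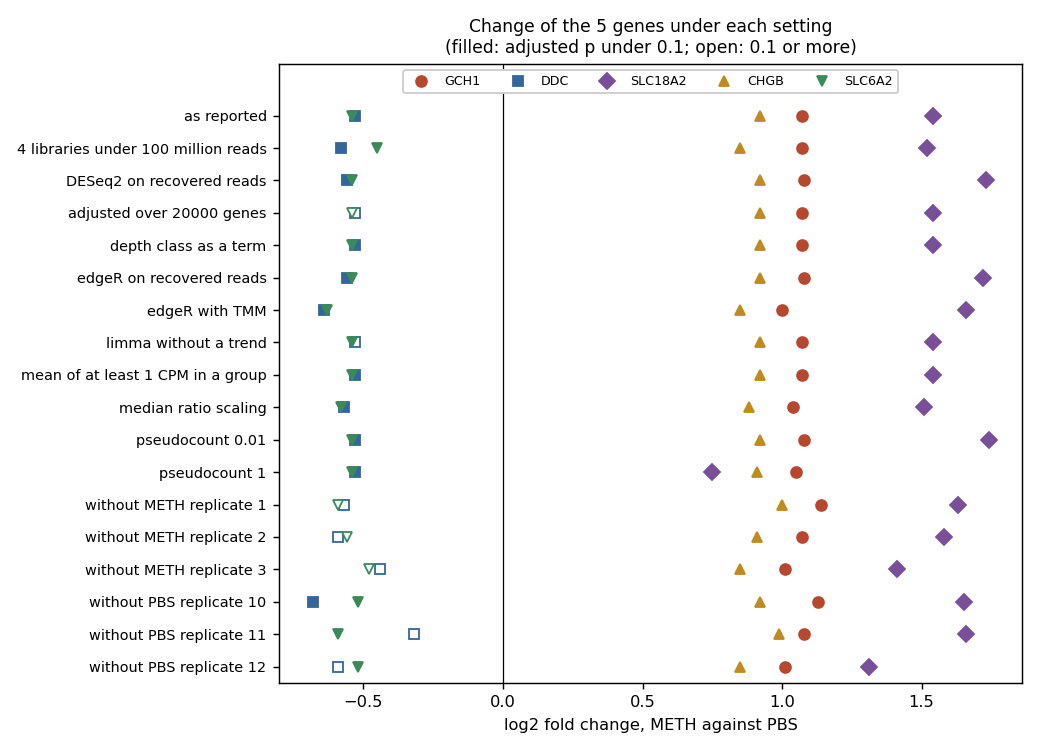
Log2 fold change of each of the 5 genes (METH against PBS) under each way of processing (rows), with a colour and shape per gene, filled where the adjusted p was under 0.1 and open where it was not. No gene changed direction, and the fits that did not pass belong to DDC and SLC6A2.

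The 5 genes were then set beside other genes of the same pathways, taken from 9 lists of 189 genes. The lists were chosen with earlier results of these data known, so their shares below are a description and no independent support. The table holds 58 of these genes, 53 of them besides the members, and 32 of the 53 were higher (60.4%), 10 were lower (18.9%) and 11 did not pass, beside 33.3% higher and 35.8% lower in the whole table. Their median log2 fold change was 0.64, beside 0.11 for the whole table, and the groups did not overlap in 36 of them (67.9%), a share near the 64.0% of the whole table. Without PBS 12, METH 1 or METH 2, only 27, 17 or 15 of the 53 passed, while the whole table went from 2833 genes to 1601, 1119 or 975. In the 4 shallower libraries 45 of the 53 passed, and with depth class as a term 52 did, beside 67.3% and 90.9% of the whole table. Over 20000 genes, 11 passed.

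Among the synthesis enzymes and cofactor genes, GCH1 rose beside a group of which more members fell than rose. The list holds 18 genes, of which 6 besides DDC and GCH1 were in the table, with a median log2 fold change of -0.87. Of the 6, 1 was higher and 4 were lower with METH (66.7%, beside 35.8% of the whole table). PNMT, which methylates noradrenaline to adrenaline, went from 5.70 ± 1.75 to 2.62 ± 0.33 CPM (SD, n = 3; log2 fold change -1.05, adjusted p = 0.0313). CYB561, the granule cytochrome that hands electrons inward for the hydroxylation of dopamine, went from 602 ± 105 to 344 ± 12.1 CPM (-0.79, 0.0334). PCBD2, a pterin dehydratase of the recycling arm, fell by 0.96 on the log2 scale (adjusted p = 0.0188). SLC31A1, a copper transporter, rose by 0.48 (0.0748), and PCBD1 had a log2 fold change of 0.41 with an adjusted p of 0.131. Without METH 2, only 2 of the 6 passed, both lower, and without METH 1 only 3 did, all lower. TH and DBH, the hydroxylases on either side of DDC, and the tetrahydrobiopterin genes PTS, SPR and QDPR are not among its rows and were not analysed here.

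Of 12 genes for the breakdown of monoamines, 2 were in the table. MAOB, a monoamine oxidase of the mitochondrial outer membrane, went from 2.60 ± 0.505 to 0.953 ± 0.422 CPM (SD, n = 3; log2 fold change -1.42, adjusted p = 0.023). SULT1A3, a sulfotransferase of catecholamines, had a log2 fold change of 1.20 (adjusted p = 0.0338). SULT1A3 has a near-identical copy, SULT1A4, so its value is uncertain. SLC6A2 was the only one of 7 plasma membrane monoamine carriers in the table.

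Genes of vesicles and granules that passed the test moved in the same direction as SLC18A2 and CHGB. In the list of vesicular transporters and synaptic vesicle proteins, 11 of 36 genes besides SLC18A2 were in the table, of which 7 were higher (63.6%), 0 were lower and 4 did not pass, with a median log2 fold change of 0.64. The share called was below the 69.1% of the whole table, and the groups did not overlap in 5 of the 11 (45.5%), also below its 64.0%. SLC17A7, the vesicular glutamate transporter VGLUT1, went from 0.709 ± 0.124 to 4.58 ± 1.54 CPM (SD, n = 3; 2.48, adjusted p = 0.00406). RAB3C, a GTPase of secretory vesicles, rose by 1.13 on the log2 scale (0.0181). SYT1, the calcium sensor of release, rose by 0.72 (0.0404), and SNAP25, of the fusion machinery, rose by 0.63 (0.0478). Only 3, 4 or 2 of the 11 passed without PBS 12, METH 1 or METH 2. The 5 subunits of the vacuolar proton pump in the table, out of 24 listed, were all higher, beside 33.3% of the whole table. This pump makes the proton gradient that VMAT2 uses, and its subunits had log2 fold changes between 0.45 and 0.80. They lost their call most readily, as 0 of 5 passed without METH 1 or METH 2, 1 without PBS 12, 3 without PBS 10, 3 without a trend and 3 by edgeR with TMM.

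**Figure D4:**
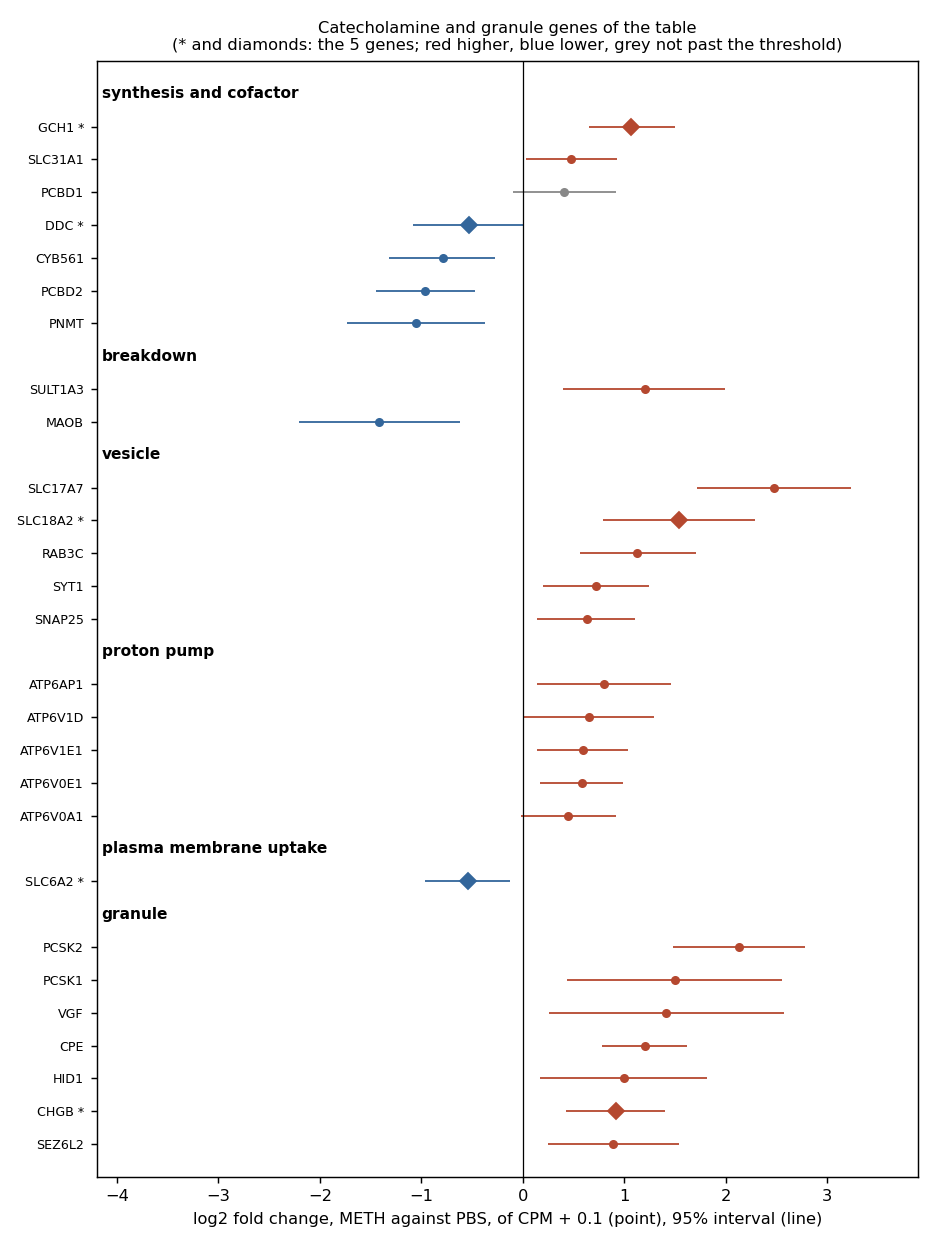
Log2 fold change (METH against PBS, points) with its 95% interval (bars) of the 5 members (diamonds) and of listed genes named in the text, with the proton pump subunits, grouped by list, so that most listed genes that did not pass are not drawn. The granule, vesicle and proton pump genes drawn that passed lie above 0, and DDC, CYB561, PCBD2, PNMT, MAOB and SLC6A2 lie below it. VIP and BAIAP3 of the granule list, which did not pass, had log2 fold changes of -0.59 and -1.34.

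In the list of granins and dense-core granule genes, 16 of 31 besides CHGB were in the table, with a median log2 fold change of 0.82. Of the 16, 12 were higher (75.0%), 0 were lower and 4 did not pass. The share called lay near the 69.1% of the whole table, of which 33.3% were higher and 35.8% lower. The processing enzymes were among those with the larger changes. PCSK2, a prohormone convertase, went from 1.44 ± 0.337 to 6.67 ± 1.41 CPM (SD, n = 3; 2.13, adjusted p = 0.00401), and CPE, the carboxypeptidase that trims the cut peptides, from 69.5 ± 5.31 to 160 ± 9.08 CPM (1.20, 0.00679). PCSK1, the other convertase, was up-regulated by 1.50 on the log2 scale (0.039) at a mean of 0.489 CPM or less. VGF, a granule cargo protein, went from 3810 ± 2190 to 9410 ± 2880 CPM (1.41, 0.0556), but its groups overlapped, as PBS 11 (6227 CPM) exceeded METH 3 (6103 CPM). HID1 had a log2 fold change of 1.00 (0.0564) and SEZ6L2 of 0.89 (0.041). The groups were apart in 8 of the 16 genes, a share below the 64.0% of the whole table. The libraries departed from the means of their groups in this list, with median deviations on the log2 scale of 0.44 in PBS 11, -0.19 in PBS 10 and -0.35 in METH 3. Without METH 1 or METH 2 only 3 of the 16 passed, and without PBS 12 or PBS 10 it was 8, of which 7 were higher and 1 was lower. In the 4 shallower libraries 13 were higher and 0 lower, and with depth class as a term 14 were higher and 2 lower. In these fits 67.3% and 90.9% of the whole table passed. Median ratio scaling, DESeq2 and edgeR with TMM each gave 12 higher and 2 lower, the lower ones being VIP and BAIAP3, with log2 fold changes of -0.59 and -1.34 by limma in all 6 libraries, which did not pass. CHGA, the other chromogranin, was not analysed here.

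The full cAMP response element seen at SLC18A2 was also sought in the listed genes. Of the listed genes of the table with a promoter entry, members included, 4 of 24 that were higher held it, as did 0 of 7 that were lower and 0 of 10 that did not pass. The core without the full element was held by 8, 0 and 6 of them. SLC18A2, where the element was first seen, is 1 of the 4. Over all 34796 promoters, 1.84% held the full element and 24.5% its core, with or without the full element. At a share of 1.84%, a count of 0 would be usual among 7 or 10 genes. Some genes have several windows, and no test was made of these counts. The 30 bases around the element in the other 3 genes and in SLC18A2 are shown to let them be compared, with the element in capitals.
SLC18A2, chr10:117241055-117241084, plus strand: ccctccggccgTGACGTCAgagccggacgg
PCSK1, chr5:96433307-96433336, minus strand: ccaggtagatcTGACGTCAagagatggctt
VGF, chr7:101165630-101165659, minus strand: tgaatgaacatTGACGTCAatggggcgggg
SLC31A1, chr9:113221441-113221470, plus strand: cgagcgccgagTGACGTCAggcctctccag
The element lay at position -77 in PCSK1, -79 in VGF and -92 in SLC31A1. The log2 fold changes of these genes were 1.50, 1.41 and 0.48, and that of SLC18A2 was 1.54.

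Most transcription factors of noradrenergic and dopaminergic cells in the table were lower with METH. Of 23 listed, 7 were in the table, with a median log2 fold change of -0.67. Of these, 2 were higher (NR4A2 and TBX2) and 5 were lower (71.4%, beside 35.8% of the whole table). NR4A2, an orphan nuclear receptor required for midbrain dopamine neurons, measured 0.018, 0.058 and 0 CPM in the PBS libraries and 2.95, 1.99 and 1.72 CPM in the METH libraries (log2 fold change 4.20, adjusted p = 0.000619), a size that depends on the pseudocount. HAND1, a factor of sympathetic precursors, had a log2 fold change of -1.30 (0.0108) and GATA2 of -0.70 (0.0371). Without METH 1 or METH 2 only 1 of the 5 that fell passed, and without PBS 12 it was 3. PHOX2A has no row in the table and was not analysed here.

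Among 18 listed regulators of dopamine handling, 3 of the 5 in the table were higher and 2 did not pass. PPP2R5C, a regulatory subunit of protein phosphatase 2A, had a log2 fold change of 0.88 (adjusted p = 0.019), and CAMK2A, a calcium-dependent kinase, of 1.27 (0.0388) at under 0.5 CPM. All 5 passed without PBS 11 or with depth class as a term, a fit in which 90.9% of the whole table passed. Only 2 passed without METH 1, with adjustment over 20000 genes or with the filter of 1 CPM. Of 20 receptor and signalling genes only RGS2, which limits G-protein signals, was in the table, and it was higher (2.08, 0.00458).

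For each member the genes with the most similar profile were taken by Pearson's r of log2(CPM + 0.1) over the 6 libraries, among the genes that averaged 1 CPM or more. For GCH1 they included SLITRK6 (r = 0.996) and RAB29 (0.994), and for CHGB they included TMCO1 (0.994) and CPE (0.991). SLC18A2 was followed by PDP1, SDCBP and RAB12 (0.995 each). SLC6A2 was followed by ZWINT (0.997), DDX12P (0.996) and P2RY6 (0.994), and DDC by GADD45G (0.996), HTR1E (0.991) and WDR90 (0.988). Such values are easily reached over 6 libraries in 2 groups, as between 45 (DDC) and 135 (SLC18A2) genes had an r over 0.95. Between members, r was 0.989 for GCH1 with CHGB, 0.985 for SLC18A2 with CHGB and -0.992 for SLC6A2 with CHGB, while DDC followed SLC6A2 less closely (0.677) in these libraries.

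The cell type of the labels could be checked only in part. Of 15 markers of noradrenergic neuroblastoma cells, 5 were in the table, among them GATA2, DDC, CHGB and ELAVL4, and their sum was 954 to 1040 CPM in the PBS group and 879 to 977 CPM in the METH group. The sum includes the members DDC and CHGB, so it is not independent of them, and the rise of CHGB offsets falls of the others. Apart from CHGB, each was lower with METH. GATA2 went from 401 to 507 CPM in the PBS group to 264 to 280 CPM in the METH group. ELAVL4 went from 69.0 to 112 CPM to 44.8 to 61.3 CPM. Of 12 markers of mesenchymal neuroblastoma cells, 5 were in the table, 3 higher (VIM, SNAI2 and LUM) and 0 lower, with a sum of 475 to 755 CPM in the PBS group and 816 to 1170 CPM in the METH group. Of the markers of Schwann-like and cholinergic cells only ERBB3 (0.268 to 0.46 CPM in the PBS group, 0.537 to 0.785 in the METH group) and ACHE (4.96 to 13.3 and 15.8 to 39.1 CPM) were in the table, and both were higher. All genes deposited were marked as changed by the authors, and 69.1% of them passed here, 33.3% higher and 35.8% lower with METH. The marker counts therefore have a high background, and they were not tested against it. The part of the marker changes in those of the 5 genes was not tested.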

How the data were processed

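Total RNA of SH-SY5Y cells (3 METH and 3 PBS libraries) was sequenced by the authors. They deposited 1 table of 4101 genes, all of them marked significant between METH and PBS, with a value per library. The columns are headed FPKM, but the values deposited by the authors are CPM, that is, reads of a gene divided by the M reads of the library and not by gene length. Every value under 1 CPM was a whole multiple of the step of its column (tolerance 0.00051 CPM), and the steps gave denominators of 85.7 to 110.8 M reads. The step of a column was the one that left most of its low values whole. The lowest value of PBS 10 is 2 reads. The deposited table also holds the authors' group means and the fold changes and p-values of their DESeq2 comparison, which were not used. The aligner, the counting tool, strand use and the genome build are not given in the sources used here. Since these genes were picked by the same comparison, adjustment within them is lenient, and what lies outside the table was not analysed here.

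METH and PBS were compared on log2(CPM + 0.1) by limma 3.58.1 in R 4.3.3 (lmFit, eBayes with a trend), 2-sided, with Benjamini-Hochberg adjustment over the 4101 genes and a threshold of 0.1. Exact permutation tests were run over the 6 libraries for single genes and ratios. PBS columns, numbered 10 to 12 unlike the labels, were taken as PBS libraries and not paired. The fits were repeated with 1 or 0.01 as the pseudocount, with a filter that kept genes of 1 CPM or more on average in either group, with no trend, median ratio scaling, a threshold of 0.05, adjustment over 20000 genes, each library left out, edgeR 4.0.16 (also with TMM) and DESeq2 1.42.0 on recovered reads. Further fits, chosen after seeing the data, had depth class as a term or used the 4 libraries under 100 M reads. Intervals of low counts cover counting error only. Gene positions came from GENCODE 29 (4093 of 4101 identifiers matched) and promoters from RefSeq (GRCh38.p14). The members and gene lists were chosen with earlier results of these data known. Named genes are the members, up to 6 called genes a list by size, the 3 most similar genes of each member, genes that overlap a member, and NR4A2 and PHOX2A. Some genes that the rule names are not reported here. Genes named outside that rule were chosen after their values were seen. A planned description of the proteins was not made, as no protein table was at hand. Sums, exact tests and figures were made in Python (3.11.15) with scipy (1.17.1), pandas (2.3.3), numpy (2.4.6) and matplotlib (3.10.9).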

Additional observations from a re-analysis of the deposited data

How the results depend on the processing

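None of the 5 genes changed direction under any alternative. GCH1, SLC18A2 and CHGB passed the threshold in each of them. The number of the 5 genes that passed was 3 with adjustment over 20000 genes and between 3 and 5 with 1 library left out. DDC (log2 fold change -0.53) did not pass with adjustment over 20000 genes, without a trend (adjusted p = 0.108, limma) or at a threshold of 0.05, and with 1 library left out it was between -0.68 and -0.32. SLC6A2 (-0.54) did not pass over 20000 genes, and it was between -0.59 and -0.48 with 1 library left out. Of the whole table, 2833 genes passed, against 410 over 20000 genes, 1479 at a threshold of 0.05 and 975 to 2919 with 1 library left out. Of the 53 other listed genes, 42 passed, against 11 over 20000 genes and 15 to 47 with 1 library left out. The larger number of genes adjusted for and the smaller number of libraries are part of these alternatives, and beyond that the cause was not tested. The balance of the table, 1366 genes higher and 1467 lower, was 1066 and 1661 with edgeR and TMM. It turned with adjustment over 20000 genes (219 and 191), without METH 3 (1329 and 1144) and without PBS 11 (1551 and 1368). It also turned in the 4 shallower libraries (1432 and 1326) and with depth class as a term (1912 and 1816). Depth class as a term gave 3728 calls and the 4 shallower libraries 2758, and both fits were chosen after seeing the data. No paired analysis was possible because the PBS columns carry the numbers 10 to 12 and share none with the METH columns. Depth limits SLC18A2 most, with 25 to 54 reads in the PBS libraries.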
